A study of Mus musculus with 11 samples.

Results

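The genes described here are 7 genes of gamma-delta and innate-like T cells: the gamma chain constant genes Tcrg-C1, Tcrg-C2 and Tcrg-C4, the delta chain constant gene Trdc, the transcription factor genes Zbtb16 and Sox13, and the receptor gene Ncr1. They were chosen by name, and all 7 were found among the 46078 genes of the count table. They were followed through T cells taken from kidneys of wild-type mice with glomerulonephritis, an inflammation of the kidney's filtering units, which was started by immunising with myeloperoxidase and then giving a low dose of sheep globulin against the basement membrane. All groups share that disease protocol and were collected on day 21, and no untreated or undiseased group was analysed here. Cells of 3 mice were pooled for each library, and every SD and p below therefore measures how such pools differ, not how animals differ.

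The cells were sorted by flow cytometry on CD4 or CD8 and on 2 surface proteins. CD127 is the alpha chain of the receptor for interleukin 7, a survival signal of resting T cells, and PD-1 is an inhibitory receptor of stimulated T cells. CD4 cells were taken as CD127-PD-1+ (n = 2) and CD127+PD-1- (n = 3), and CD8 cells as CD127-PD-1+ (n = 3) and CD127+PD-1- (n = 3), which gives 4 groups. The gates as labelled name no receptor chain, so the labels do not say whether gamma-delta cells were kept or removed.

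Most T cells read antigen with a receptor of an alpha and a beta chain, while gamma-delta T cells use a gamma and a delta chain and often sit in tissues such as skin, gut and kidney, where many respond quickly with cytokines. The mouse gamma locus holds several clusters, each with its own constant gene, and gamma genes can be rearranged and transcribed in alpha-beta cells too, whereas the delta genes lie inside the alpha locus and are removed when an alpha gene is assembled. Zbtb16 encodes PLZF, the factor that gives natural killer T cells, mucosal-associated invariant T cells and some gamma-delta cells their rapid, innate-like behaviour. Sox13 encodes a factor of interleukin-17-producing gamma-delta cells in mice, and Ncr1 encodes NKp46, an activating receptor of natural killer (NK) cells and some innate lymphoid cells.

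Library totals lay between 10.6 M and 16.1 M counts, and between 20514 and 21849 genes had at least 1 count. The sort markers followed the labels in the RNA, apart from some Cd8b1 in CD4+CD127+PD-1- cells. Il7r, which encodes CD127, lay between 13.8 and 27.2 CPM (counts scaled to 1 M for each library) in the CD127-PD-1+ libraries and between 329 and 455 CPM in the CD127+PD-1- libraries. Cd4 lay between 503 and 680 CPM in the CD4 libraries and between 1.19 and 9.71 CPM in the CD8 libraries. The T cell gene Cd3e was present at 443 to 720 CPM in every library. Mitochondrial ribosomal RNA made up 35.7% to 40.8% of counts in CD8+CD127-PD-1+ cells and 28.1% to 31.8% in the other 3 groups.

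The gamma constant genes are close copies, and the stretch of sequence where they differ decides which reads can be told apart. The beginning of the constant exon of each receptor gene is shown for that reason. All lie on GRCm38 in the GENCODE M21 annotation, and each line holds the first 150 bases of the coding sequence, 5′ to 3′ on the gene's own strand. Capitals in Tcrg-C2 and Tcrg-C4 mark the bases that differ from Tcrg-C1 at the same position, 4 in Tcrg-C2 and 15 in Tcrg-C4. Tcrg-C1 and the unrelated Trdc are in lower case throughout.
Tcrg-C1: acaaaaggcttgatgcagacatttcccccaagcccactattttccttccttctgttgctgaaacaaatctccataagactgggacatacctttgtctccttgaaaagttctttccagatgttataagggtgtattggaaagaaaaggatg
Tcrg-C2: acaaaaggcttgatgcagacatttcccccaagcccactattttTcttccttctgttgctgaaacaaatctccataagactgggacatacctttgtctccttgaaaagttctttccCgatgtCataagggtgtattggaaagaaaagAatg
Tcrg-C4: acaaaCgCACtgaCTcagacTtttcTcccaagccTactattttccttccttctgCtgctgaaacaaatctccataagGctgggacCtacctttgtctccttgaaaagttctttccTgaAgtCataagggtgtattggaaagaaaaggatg
Trdc: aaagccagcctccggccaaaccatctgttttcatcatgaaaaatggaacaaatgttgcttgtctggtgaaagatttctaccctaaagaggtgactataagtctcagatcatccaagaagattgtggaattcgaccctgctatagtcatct

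Tcrg-C1 (ENSMUSG00000076749, chr13:19214103-19217024, plus strand), Tcrg-C2 (ENSMUSG00000076752, chr13:19304649-19307551, minus strand) and Tcrg-C4 (ENSMUSG00000076757, chr13:19344558-19352756, plus strand) lie in 1 locus on chromosome 13. Over the whole coding sequence Tcrg-C2 was 97.4% identical to Tcrg-C1, and Tcrg-C4 was 77.3% identical to it. Of the 75-base windows of its transcript, the length of the reads here, Tcrg-C1 shared 12.9% with another gamma constant gene and Tcrg-C2 shared 9.17%, while Tcrg-C4 shared none. Reads from the shared windows cannot be placed between Tcrg-C1, Tcrg-C2 and Tcrg-C3, so the split between Tcrg-C1 and Tcrg-C2 is less certain than the level of Tcrg-C4. Trdc (ENSMUSG00000104876, chr14:54142851-54148868, plus strand) shared no window with a gamma gene. It overlaps the antisense gene Gm43434 and the variable segment Trdv5 on the other strand, and no strand setting is known for the counting, so reads of overlapping genes could not be told apart.

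Gamma constant reads were present in every library, and delta constant reads were scarce. As a share of all reads of the receptor constant genes, the gamma genes made up 12.1% and 4.04% in the CD4+CD127-PD-1+ libraries, against 4.47%, 3.22% and 1.58% in the CD4+CD127+PD-1- libraries. The 95% Wilson intervals, which cover counting error only, ran from 11.6% to 12.7% for the highest library and from 1.34% to 1.86% for the lowest. The highest share was therefore that of a single CD4+CD127-PD-1+ library, and the other library of that group lay within the range of the CD4+CD127+PD-1- group.

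In CD8 cells the gamma share was 8.85%, 4.46% and 4.16% in the CD127-PD-1+ libraries, against 3.50%, 2.75% and 3.86% in the CD127+PD-1- libraries. These CD8 groups did not overlap, although the nearest libraries were 4.16% and 3.86%. The rest of the receptor reads were almost all from the alpha and beta constant genes, which gave 8591 to 14705 reads a library.

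Trdc gave 10 to 58 reads a library, and its share of the receptor constant reads lay between 0.0652% and 0.602%. The ratio of gamma to Trdc reads was 90.9 and 62.0 in the CD4+CD127-PD-1+ libraries, against 8.12, 16.9 and 11.6 in the CD4+CD127+PD-1- libraries. In CD8 cells it was 39.4, 15.1 and 7.81 in the CD127-PD-1+ libraries, against 10.9, 4.57 and 9.07 in the CD127+PD-1- libraries. The ratio was thus higher in both CD4+CD127-PD-1+ libraries than in any of the other 9, while the CD8 groups overlapped. On a scale that divides CPM by the annotated exon length in kilobases, gamma genes summed to between 14.0 and 124 CPM per kb, Trdc lay between 0.168 and 1.11, and the alpha constant gene Trac between 243 and 509. The exon length was 3865 bases for Trdc, with 458 coding bases. It was 924, 914 and 985 bases for Tcrg-C1, Tcrg-C2 and Tcrg-C4 and 935 for Trac. The Trdc value on this scale would be higher if less of its annotated length is transcribed. The sorted cells are mixtures, and fewer cells of a type cannot be told apart from less RNA per cell in any level given here.

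**Figure D1:**
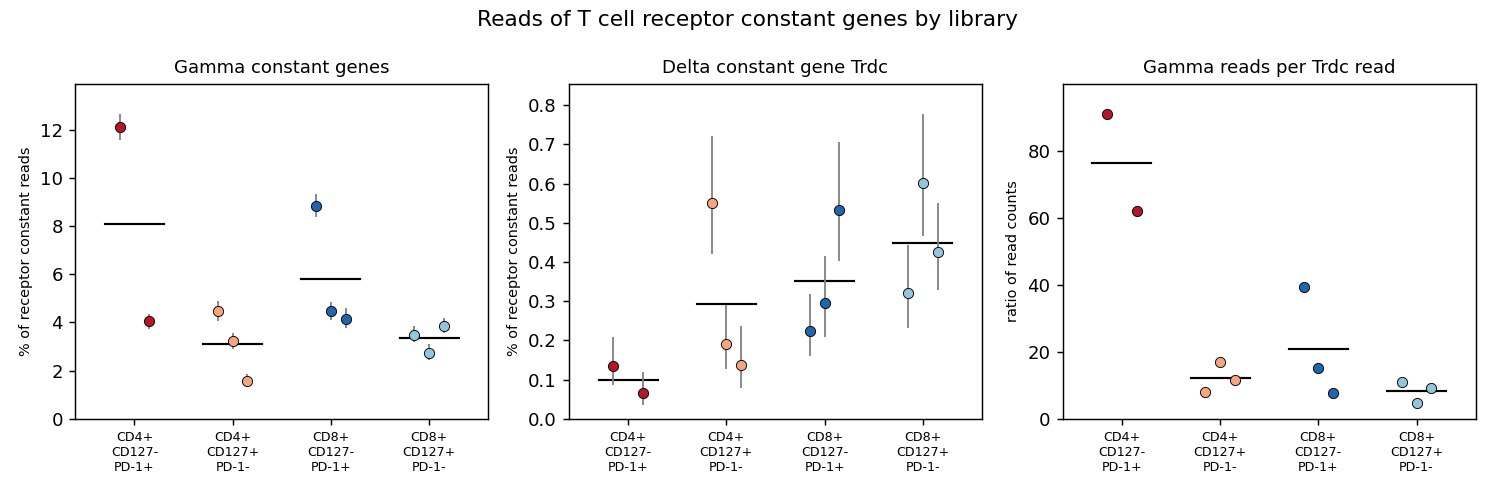
Reads of receptor constant genes by library, with the gamma share and the Trdc share in % of all receptor constant reads and the ratio of gamma to Trdc reads on the vertical axes. Points are libraries, grey bars are 95% Wilson intervals and black lines are group means; the gamma share reaches 12.1% in a CD4+CD127-PD-1+ library, and the ratio is highest at 90.9 and 62.0 in that group.

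Among the gamma genes, Tcrg-C2 was the most abundant in most libraries and separated the states most clearly. Tcrg-C2 measured 59.2 and 24.2 CPM among the CD4+CD127-PD-1+ libraries, against 14.7, 10.7 and 4.83 CPM among the CD4+CD127+PD-1- libraries. In CD8 cells it measured 68.2, 20.96 and 19.7 CPM in the CD127-PD-1+ libraries, against 15.2, 11.6 and 18.4 CPM in the CD127+PD-1- libraries. In neither lineage did the states overlap, but in CD8 cells the lowest CD127-PD-1+ library and the highest CD127+PD-1- library lay close together.

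Tcrg-C2 rose in CD4+CD127-PD-1+ cells relative to CD4+CD127+PD-1- cells, with a log2 fold change of 2.04 (SE 0.57, edgeR adjusted p = 0.0394). In CD8 cells the change was 1.26 (SE 0.52, adjusted p = 0.126) and did not pass the threshold of 0.05, and it was 0.43 (adjusted p = 0.574) when replicate 1 of CD8+CD127-PD-1+ was left out. The call in CD4 cells rested on few libraries. It was lost when replicate 1 of CD4+CD127-PD-1+ was left out (log2 fold change 1.26, adjusted p = 0.290). Replicates 1, 2 and 3 of CD4+CD127+PD-1- each ended it too when left out (adjusted p = 0.0530, 0.107 and 0.107), as did replicate 1 of CD8+CD127+PD-1- (0.0531). It was also lost by limma-voom (adjusted p = 0.0628). The difference between the CD4 and CD8 changes was 0.78 (SE 0.77, adjusted p = 0.991), so no difference between the lineages was shown.

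Tcrg-C4 measured 31.4 and 10.96 CPM among the CD4+CD127-PD-1+ libraries, against 11.1, 10.3 and 2.60 CPM among the CD4+CD127+PD-1- libraries. The CD8 levels were 11.9, 4.63 and 5.50 CPM in the CD127-PD-1+ libraries, against 7.07, 3.51 and 3.95 CPM in the CD127+PD-1- libraries. Replicate 1 of the CD4+CD127-PD-1+ group stood above every other library, and otherwise the groups overlapped. The log2 fold changes between the states were 1.40 (SE 0.59, adjusted p = 0.162) in CD4 cells and 0.60 (SE 0.56, adjusted p = 0.531) in CD8 cells, and neither passed the test. The CD4 value depended on the libraries and the model, at 0.45 (adjusted p = 0.756) when replicate 1 of CD4+CD127-PD-1+ was left out, and at 1.71 (adjusted p = 0.0142) in a model that adds as a block the replicate number given in the sample descriptions, where it was called.

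Tcrg-C1 measured 24.9 and 4.93 CPM among the CD4+CD127-PD-1+ libraries, against 9.11, 7.52 and 5.30 CPM among the CD4+CD127+PD-1- libraries. Levels in CD8 cells were 11.2, 10.5 and 2.60 CPM in the CD127-PD-1+ libraries, against 4.04, 4.25 and 13.2 CPM in the CD127+PD-1- libraries. Here the libraries of a group differed among themselves as much as the groups did. The log2 fold changes were 1.02 (SE 0.71, adjusted p = 0.409) in CD4 cells and 0.18 (SE 0.65, adjusted p = 0.893) in CD8 cells. Their direction turned with single libraries, to -0.57 in CD4 cells without CD4+CD127-PD-1+ replicate 1, and in CD8 cells to values between -0.12 and -0.045 without CD8+CD127-PD-1+ replicate 1 or 2 or CD8+CD127+PD-1- replicate 1 or 2. With library totals in place of the trimmed mean scaling the CD8 value was -0.015.

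The 3 constant genes also differed in their share of the gamma reads. Tcrg-C2 made up 51.1% to 60.3% of them in CD4+CD127-PD-1+ cells and 37.4% to 42.2% in CD4+CD127+PD-1- cells. The CD8 shares were 58.1% to 74.1% in the CD127-PD-1+ group and 51.5% to 60.0% in the CD127+PD-1- group. The CD4 states therefore did not overlap in this share, and the CD8 states did. Tcrg-C3, the constant gene of the remaining cluster, gave 0 to 9 reads a library.

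Trdc ran the other way in value, and was not called. It measured 1.28 and 0.648 CPM among the CD4+CD127-PD-1+ libraries, against 4.31, 1.69 and 1.12 CPM among the CD4+CD127+PD-1- libraries. Among CD8 cells it measured 2.34, 2.39 and 3.57 CPM in the CD127-PD-1+ libraries, against 2.42, 4.25 and 3.95 CPM in the CD127+PD-1- libraries. The states overlapped in both lineages, and the log2 fold changes were -1.30 (SE 0.58, adjusted p = 0.180) in CD4 cells and -0.35 (SE 0.46, adjusted p = 0.667) in CD8 cells. The CD4 value was -0.55 when replicate 1 of CD4+CD127+PD-1- was left out and -1.86 when replicate 1 of CD4+CD127-PD-1+ was left out.

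**Figure D2:**
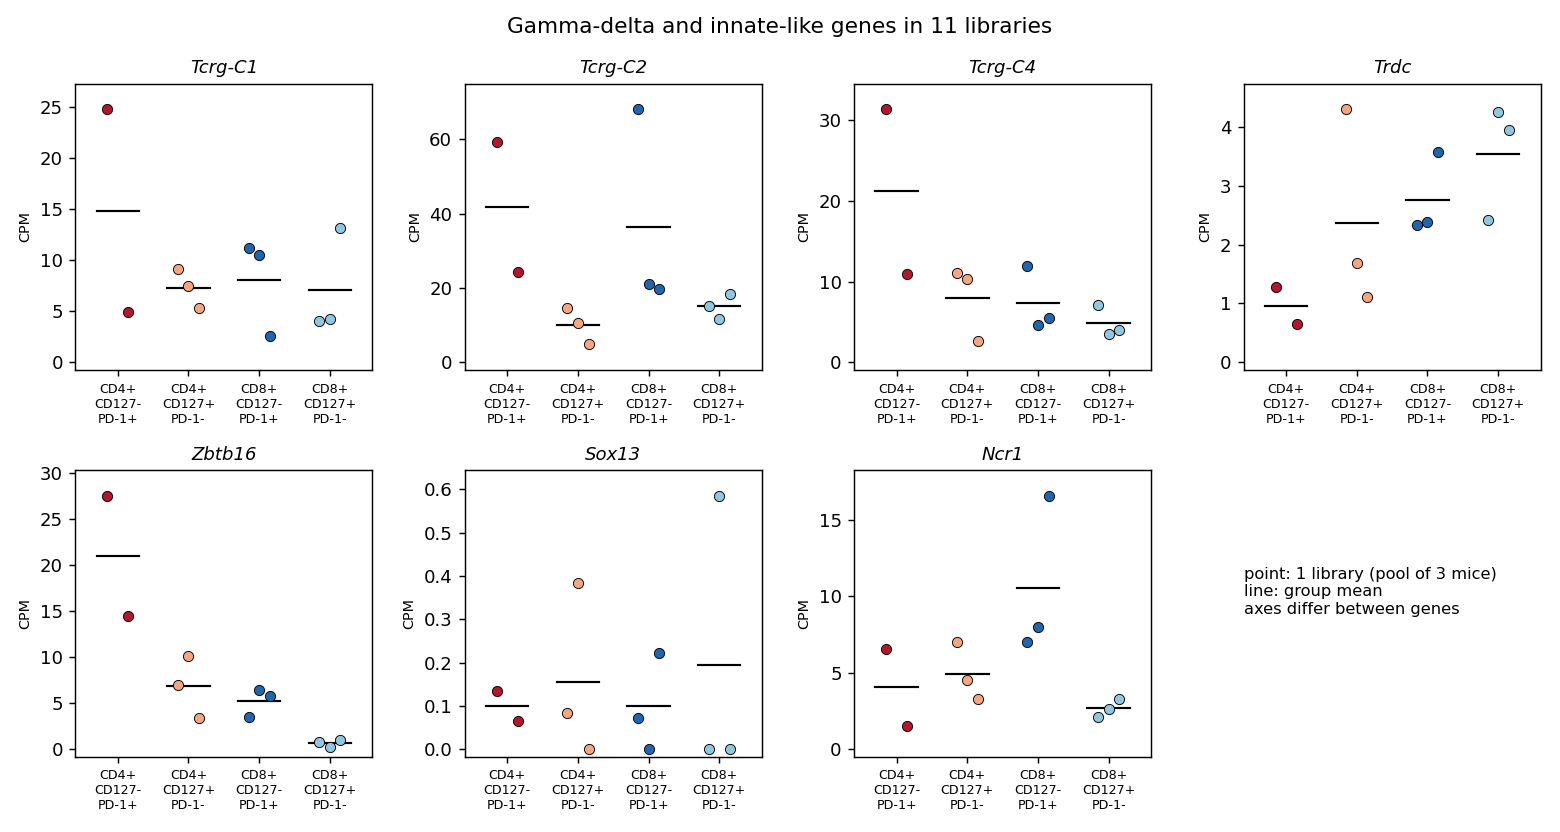
Level of each of the 7 genes in CPM, on a vertical axis of its own for each gene, in the 11 libraries. Points are libraries and black lines are group means; Zbtb16 separates the states in both lineages, the states of Tcrg-C2 do not overlap, and Sox13 stays at or below 0.586 CPM.

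Zbtb16 (ENSMUSG00000066687, chr9:48654297-48836222, minus strand) differed by both state and lineage. It measured 27.5 and 14.5 CPM among the CD4+CD127-PD-1+ libraries, against 6.95, 10.1 and 3.35 CPM among the CD4+CD127+PD-1- libraries. CD8 cells had less, with 3.50, 6.42 and 5.72 CPM in the CD127-PD-1+ libraries, against 0.740, 0.220 and 0.969 CPM in the CD127+PD-1- libraries. No CD127-PD-1+ library overlapped a CD127+PD-1- library of the same lineage, and the CD8+CD127+PD-1- level rests on only 3 to 14 reads a library.

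Zbtb16 rose in CD8+CD127-PD-1+ cells by a log2 fold change of 2.99 (SE 0.53, adjusted p = 0.00319), and this call held under every alternative setting tried and without each library, with values between 2.60 and 3.39 when a library was left out. In CD4 cells it rose by 1.62 (SE 0.46, adjusted p = 0.0429), close to the threshold. That call was lost when replicate 1 of CD4+CD127-PD-1+ was left out (1.08, adjusted p = 0.285), without CD4+CD127+PD-1- replicate 1 (0.109) or replicate 3 (0.104), without CD8+CD127-PD-1+ replicate 2 (0.0581) or replicate 3 (0.0588), and without CD8+CD127+PD-1- replicate 1 (0.0557). A model of the compared groups alone also lost it (adjusted p = 0.0588), as did replicate blocks by title number (0.0786) and by description number (0.0699). The CD4 change minus the CD8 change was -1.37 (SE 0.71, adjusted p = 0.919, unadjusted p = 0.0788).

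The same gene was higher in CD4 than in CD8 cells within each state. Among CD127-PD-1+ cells the log2 fold change of CD4 over CD8 was 2.01 (SE 0.47, adjusted p = 0.0468), and among CD127+PD-1- cells it was 3.38 (SE 0.53, adjusted p = 0.00350). The second call held under every alternative setting tried and without each library. The call among CD127-PD-1+ cells was lost when replicate 1 of CD4+CD127-PD-1+ was left out (adjusted p = 0.254), as without its replicate 2 (0.0737), CD4+CD127+PD-1- replicate 1 (0.0823), CD8+CD127-PD-1+ replicate 1 (0.123), replicate 2 (0.114) or replicate 3 (0.130), or CD8+CD127+PD-1- replicate 1 (0.0659). Replicate blocks by title number (0.118) and by description number (0.202) ended this call too. In mean level CD4+CD127-PD-1+ cells stood first, followed by CD4+CD127+PD-1- cells (6.81 ± 3.39 CPM, SD), then CD8+CD127-PD-1+ cells (5.21 ± 1.52 CPM) and last CD8+CD127+PD-1- cells (0.643 ± 0.384 CPM), and only the 2 middle groups overlapped.

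Ncr1 (ENSMUSG00000062524, chr7:4337724-4345164, plus strand) differed by state in CD8 cells. It measured 7.01, 7.98 and 16.6 CPM among the CD8+CD127-PD-1+ libraries, against 2.09, 2.64 and 3.25 CPM among the CD8+CD127+PD-1- libraries. In CD4 cells it measured 6.58 and 1.49 CPM in the CD127-PD-1+ libraries, against 7.04, 4.53 and 3.25 CPM in the CD127+PD-1- libraries. The CD8 states did not overlap, while the CD4 states did.

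Ncr1 rose in CD8+CD127-PD-1+ cells by a log2 fold change of 1.98 (SE 0.51, adjusted p = 0.0222). The call was lost without CD8+CD127-PD-1+ replicate 3 (1.49, adjusted p = 0.101), CD8+CD127+PD-1- replicate 1 (0.0766) or CD8+CD127+PD-1- replicate 2 (0.0719). A block by description number ended this call too (0.0661). In CD4 cells the change was -0.30 (SE 0.56, adjusted p = 0.801), and its direction turned without CD4+CD127-PD-1+ replicate 2 (0.42) or CD4+CD127+PD-1- replicate 1 (0.05). The CD4 change minus the CD8 change was -2.28 (SE 0.77), which reached an unadjusted p = 0.0120 and an adjusted p = 0.752, so a difference between the lineages was not shown.

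Sox13 (ENSMUSG00000070643, chr1:133382303-133424377, minus strand) was at the edge of detection. It had 0 to 8 reads a library and no read in 4 of the 11, where a count of 0 allows between 0.202 and 0.279 CPM. The highest value was 0.586 CPM, in a CD8+CD127+PD-1- library. It did not pass the filter on low counts. Without that filter its log2 fold changes were -0.68 (adjusted p = 0.955) in the CD4 state comparison and -0.94 (adjusted p = 0.789) in the CD8 state comparison, and for CD4 over CD8 the adjusted p was 1 in both states. No difference in Sox13 was detectable at this depth.

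Across the comparisons, 6 of the 7 genes were tested. In the CD4 state comparison 2 of the 6 were called higher in CD127-PD-1+ cells, Tcrg-C2 and Zbtb16, where 6.81% of all 16365 tested genes were called higher, and 0 were called lower, where 4.87% of all genes were. In the CD8 state comparison 2 were called higher, Zbtb16 and Ncr1, against 9.05% of all genes, and 0 lower, against 6.56%. For CD4 over CD8, Zbtb16 was the 1 gene called higher among CD127-PD-1+ cells (1.60% of all genes higher and 0.843% lower) and the 1 called higher among CD127+PD-1- cells (2.76% of all genes higher and 1.66% lower). No member was called for the difference of the 2 state changes, where 0.00611% of all genes were called in either direction by edgeR. At an unadjusted p under 0.05 that difference held Ncr1 among the 6, and 897 of all tested genes. Lower at an unadjusted p under 0.05 were Trdc in the CD4 state comparison, Trdc and Ncr1 for CD4 over CD8 among CD127-PD-1+ cells, and no member in the other 2 comparisons. DESeq2 called the same number of members as edgeR in each comparison, with 0 lower.

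The median log2 fold change of the 6 genes was 1.21 in the CD4 state comparison and 0.93 in the CD8 state comparison, beside medians of 0.02 and 0.01 over all tested genes. For CD4 over CD8 it was 0.54 among CD127-PD-1+ cells and 0.38 among CD127+PD-1- cells, beside -0.02 and -0.01 over all genes. These are descriptions of a short list whose members do different things. With library totals in place of the trimmed mean scaling, the median of all genes shifted by -0.24 in the CD8 state comparison and the share of calls that were higher was 29.1% in place of 58.0%. Among CD127-PD-1+ cells the CD4 over CD8 median shifted by 0.25 and that share was 86.3% in place of 65.5%. Zbtb16 and Ncr1 kept their CD8 state calls under that scaling (2.75 and 1.72).

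**Figure D3:**
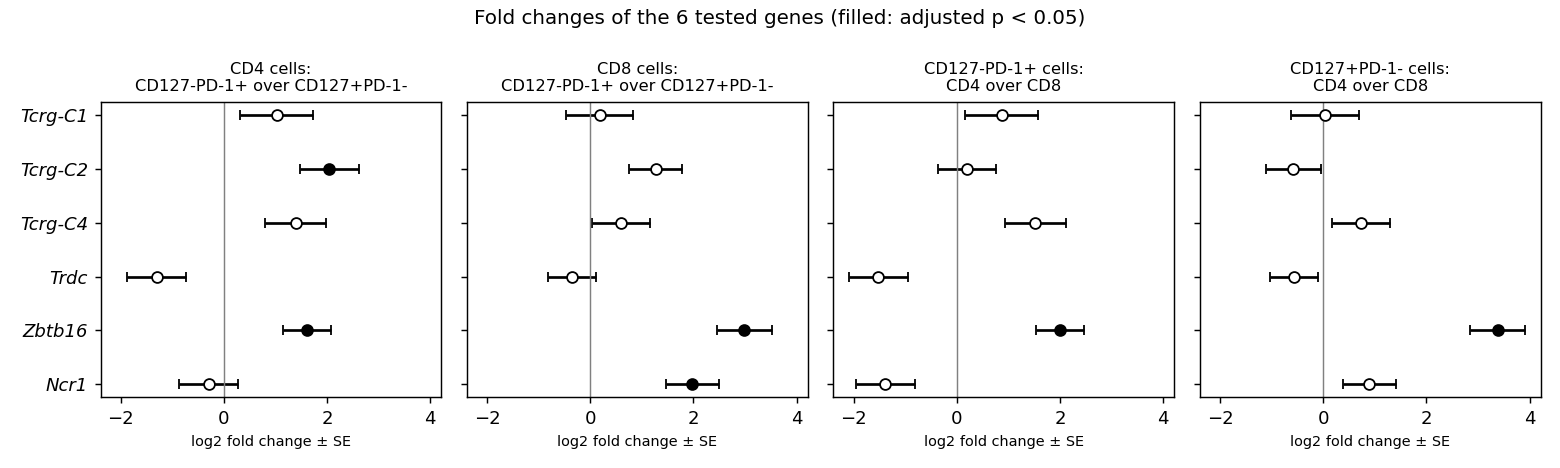
Log2 fold change ± SE (horizontal axis) of the 6 tested genes in the 4 comparisons, from the edgeR model of all 11 libraries. Filled points passed the adjusted p threshold of 0.05; Zbtb16 is filled in all 4 panels, between 1.62 and 3.38, Tcrg-C2 in the CD4 state panel and Ncr1 in the CD8 state panel.

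The variable segments of the gamma locus were read beside the constant gene of their cluster. In the annotation the segments Tcrg-V7, Tcrg-V4, Tcrg-V6 and Tcrg-V5 precede Tcrg-C1, the segment Trgv2 lies in the cluster of Tcrg-C2, and Tcrg-V1 lies in that of Tcrg-C4. Trgv2 had 262 and 103 reads in the CD4+CD127-PD-1+ libraries, against 62, 62 and 10 in the CD4+CD127+PD-1- libraries. The CD8 cells gave 296, 93 and 59 reads in the CD127-PD-1+ libraries, against 70, 28 and 95 in the CD127+PD-1- libraries. Trgv2 followed Tcrg-C2 closely over the 11 libraries (Pearson r of log2 CPM 0.95, which libraries and their depth share), at 17.6% to 44.6% of the Tcrg-C2 reads. Tcrg-V1 followed Tcrg-C4 less closely (r = 0.69), at 3.73% to 22.8% of the Tcrg-C4 reads.

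Most Tcrg-V4 reads came from 4 of the 5 CD4 libraries. There were 60 and 22 of them in the CD4+CD127-PD-1+ libraries, against 13, 19 and 1 in the CD4+CD127+PD-1- libraries, and 2 to 6 in every CD8 library, so that the lowest CD4 library lay below all CD8 libraries. Its log2 fold change of CD4 over CD8 among CD127-PD-1+ cells was 3.05 (SE 0.79, adjusted p = 0.0773) and was not called by edgeR, and among CD127+PD-1- cells it was 1.07 (SE 0.75, adjusted p = 0.522). Single libraries stood out for other segments, with 52 Tcrg-V7 reads in CD8+CD127-PD-1+ replicate 1 and 1 to 10 in the other libraries, and 19 and 23 Tcrg-V6 reads in CD8+CD127-PD-1+ replicate 2 and CD8+CD127+PD-1- replicate 3 and 0 to 5 in the others. The delta segment Trdv1 had 16 to 43 reads a library.

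Of the 21 listed segment and joining genes found in the table, 9 were tested and 0 were called in any of the 5 comparisons by edgeR. At an unadjusted p under 0.05 there were 4 in the CD4 state comparison, 1 in the CD8 state comparison, 1 for CD4 over CD8 among CD127-PD-1+ cells and 0 in the other 2 comparisons, and DESeq2 called 1, Tcrg-V4, higher in CD4 among CD127-PD-1+ cells. The medians of their log2 fold changes were 1.09 and 0.47 in the CD4 and CD8 state comparisons. The segment Trgv2 itself stood at 1.73 (SE 0.75, adjusted p = 0.169) in CD4 cells and 1.30 (SE 0.68, adjusted p = 0.230) in CD8 cells.

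**Figure D4:**
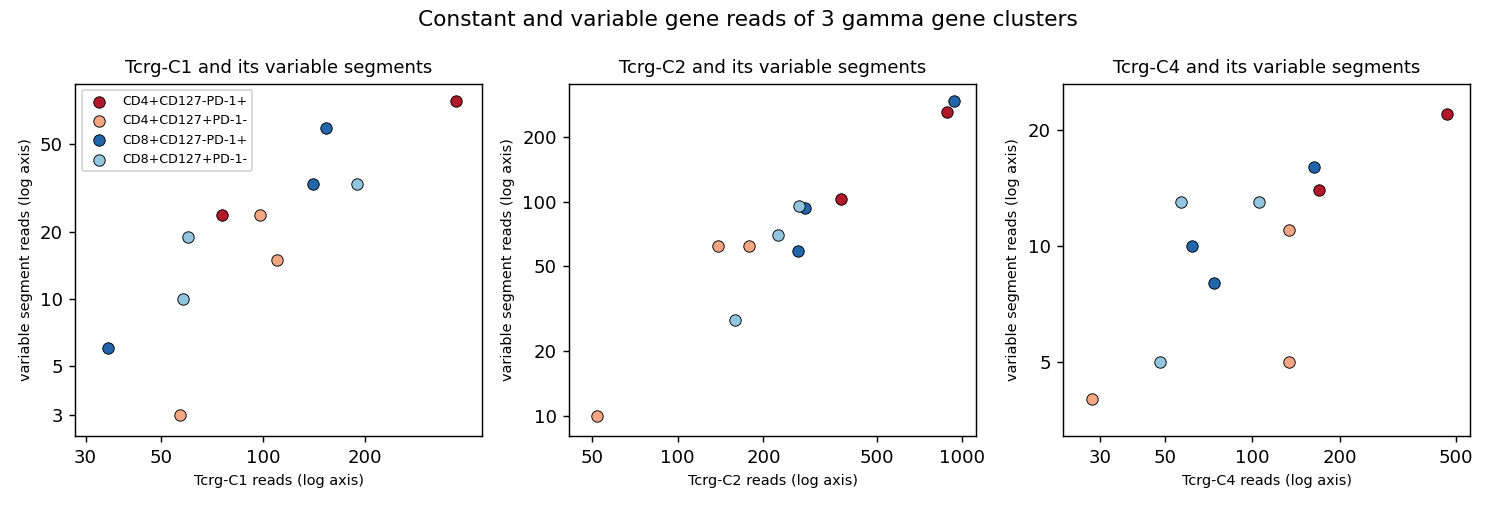
Reads of the variable segments of each gamma cluster against reads of its constant gene, both on log axes, in 11 libraries coloured by group. Tcrg-C2 and its segment are high together, up to 934 and 296 reads in CD8+CD127-PD-1+ replicate 1, and the highest Tcrg-C1 and Tcrg-C4 values are in CD4+CD127-PD-1+ replicate 1.

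Of the 7 chains of the alpha-beta receptor and of CD3, which carries the signal for both kinds of receptor, 0 were called in any comparison by edgeR. At an unadjusted p under 0.05 there was 1 in the CD4 state comparison, 0 in the CD8 state comparison, 1 and 2 for CD4 over CD8 among CD127-PD-1+ and CD127+PD-1- cells and 0 for the difference of the state changes, and DESeq2 called 1, Trac, higher in CD4 among CD127-PD-1+ cells. Their summed level was 1649 to 1832 CPM in CD4+CD127-PD-1+ cells and 1396 to 1651 in CD4+CD127+PD-1- cells, and 1270 to 1970 in CD8+CD127-PD-1+ cells and 1466 to 1836 CPM in CD8+CD127+PD-1- cells. Of 8 adaptors and kinases of receptor signalling, 1 rose in CD4+CD127-PD-1+ cells and 2 in CD8+CD127-PD-1+ cells, beside 6.81% and 9.05% of all genes. Fcer1g, a signalling chain of NK receptors and of macrophages, averaged 126 ± 65.8 CPM in CD4+CD127-PD-1+ cells and 34.9 ± 14.0 in CD4+CD127+PD-1- cells (1.86, SE 0.42, adjusted p = 0.0157). Within CD8 it averaged 157 ± 57.6 CPM in the CD127-PD-1+ group and 30.2 ± 10.2 CPM in the CD127+PD-1- group (2.38, SE 0.40, adjusted p = 0.00217). Syk, a kinase of such receptors, rose by 1.78 (SE 0.45, adjusted p = 0.0207) in CD8+CD127-PD-1+ cells. The Fcer1g call in CD4 cells was lost when replicate 1 of CD4+CD127-PD-1+ was left out (adjusted p = 0.152), or replicate 2 or 3 of CD4+CD127+PD-1- (0.0599 and 0.0513). The Syk call was lost without CD8+CD127-PD-1+ replicates 2 and 3 (0.0501 and 0.0825) and CD8+CD127+PD-1- replicates 2 and 3 (0.0766 and 0.0553).

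A list of 19 other genes tied to gamma-delta cells, most of them also used by helper T cells that make interleukin 17, split in its direction between the states. In CD4+CD127-PD-1+ cells 2 rose and 3 fell, and in CD8+CD127-PD-1+ cells 5 rose and 4 fell. Of all tested genes 6.81% rose and 4.87% fell in the CD4 comparison, and 9.05% rose and 6.56% fell in the CD8 comparison. Maf, a factor of helper and interleukin-17-producing gamma-delta cells, averaged 349 ± 24.2 CPM in CD4+CD127-PD-1+ cells and 133 ± 19.6 in CD4+CD127+PD-1- cells, and 65.8 ± 6.33 in CD8+CD127-PD-1+ cells and 11.6 ± 2.64 CPM in CD8+CD127+PD-1- cells. Etv5, a factor of gamma-delta cells making interleukin 17, rose by 2.03 (SE 0.25, adjusted p = 0.000361) in CD8+CD127-PD-1+ cells and by 1.06 (SE 0.25, adjusted p = 0.0197) in CD4+CD127-PD-1+ cells, where it was not called without CD4+CD127-PD-1+ replicate 1 (0.170) or CD4+CD127+PD-1- replicates 1 and 3 (0.0670 and 0.0537). Id3, which restrains helix-loop-helix factors and shapes gamma-delta cell fate, fell by 2.07 (SE 0.35, adjusted p = 0.00391) in CD4+CD127-PD-1+ cells and by 1.70 (SE 0.29, adjusted p = 0.00236) in CD8+CD127-PD-1+ cells. Called higher beside Maf and Etv5 in CD8+CD127-PD-1+ cells were Tmem176a (2.64, SE 0.36, adjusted p = 0.000654), Tmem176b (2.92, SE 0.43, adjusted p = 0.000995) and Blk (2.17, SE 0.64, adjusted p = 0.0407). Called lower there beside Id3 were 5830411N06Rik (-4.64, SE 0.70, adjusted p = 0.00121), Cd163l1 (-3.94, SE 0.96, adjusted p = 0.0171) and Tcf12 (-0.63, SE 0.095, adjusted p = 0.00117). In CD4+CD127-PD-1+ cells 5830411N06Rik (-2.54, SE 0.66, adjusted p = 0.0299) and Tcf12 (-0.43, SE 0.11, adjusted p = 0.0246) were called lower. Cd163l1 was not called in CD4 cells (-1.44, SE 0.90, adjusted p = 0.356).

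Between the lineages the same list ran toward CD4 cells, with 7 higher and 0 lower of 19 among CD127-PD-1+ cells and 10 higher and 0 lower among CD127+PD-1- cells. Of all tested genes 1.60% were higher and 0.843% lower in CD4 among CD127-PD-1+ cells, and 2.76% and 1.66% among CD127+PD-1- cells. At an unadjusted p under 0.05 there were 3 and 1 lower in those comparisons, and DESeq2 called 1 lower in each. Maf had the smallest p in both (2.41, SE 0.17, adjusted p = 3.08e-05, and 3.52, SE 0.17, adjusted p = 1.41e-06). The cytokine gene Il17a measured 4.50 and 51.7 CPM among the CD4+CD127-PD-1+ libraries and 0 in all 3 CD8+CD127-PD-1+ libraries. None of the receptor genes Tcrg-C1, Tcrg-C2, Tcrg-C4 and Trdc was called between CD4 and CD8 cells in either state, in the main edgeR fit or by DESeq2, with values between -1.52 and 1.53. Both ends of that range lie among CD127-PD-1+ cells, Tcrg-C4 at 1.53 (edgeR unadjusted p = 0.0249) and Trdc at -1.52 (unadjusted p = 0.0219). Without a filter on low counts edgeR called Tcrg-C4 there (adjusted p = 0.0267). Of the receptor genes, Tcrg-C1 and Tcrg-C2 changed direction when single libraries were left out.

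Genes of natural killer T and mucosal-associated invariant T cells, the other users of PLZF, included few that were called between the states. Of 21 tested, 2 rose and 3 fell in CD4+CD127-PD-1+ cells, and 1 rose and 2 fell in CD8+CD127-PD-1+ cells, where 6.81% of all genes rose and 4.87% fell in the CD4 comparison and 9.05% rose and 6.56% fell in the CD8 comparison. Egr2, an early growth response factor needed for natural killer T cells and induced by receptor signals in other T cells, averaged 54.1 ± 5.64 CPM in CD4+CD127-PD-1+ cells and 27.7 ± 2.34 in CD4+CD127+PD-1- cells (0.97, SE 0.15, adjusted p = 0.00254). Egr2 rose within CD8 by 1.12 (SE 0.14, adjusted p = 0.000411). Il17rb, a receptor for interleukin 25, fell by 1.74 in CD4+CD127-PD-1+ cells (SE 0.38, adjusted p = 0.0131, not called without CD4+CD127-PD-1+ replicate 2 at 0.0950) and by 1.96 in CD8+CD127-PD-1+ cells (SE 0.37, adjusted p = 0.00436).

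For CD4 over CD8, 4 of these 21 genes were higher among CD127-PD-1+ cells and 5 among CD127+PD-1- cells, and 0 were lower by edgeR, by DESeq2 or at an unadjusted p under 0.05. Of all tested genes edgeR called 1.60% higher and 0.843% lower among CD127-PD-1+ cells, and 2.76% and 1.66% among CD127+PD-1- cells. Il4, a helper cytokine that natural killer T cells also make, measured 9.79 and 24.6 CPM among the CD4+CD127-PD-1+ libraries and 0.149 to 0.511 CPM among the CD8+CD127-PD-1+ libraries (5.94, SE 0.67, adjusted p = 0.000785). Traj18, the joining segment used by the invariant alpha chain of natural killer T cells and also open to other alpha chains, averaged 15.8 ± 7.20 CPM in CD4+CD127-PD-1+ cells and 4.41 ± 1.22 CPM in CD8+CD127-PD-1+ cells. It was among the 4 genes called there. Zbtb7b, which encodes the PLZF relative ThPOK and fixes the CD4 fate, was higher in CD4 than in CD8 cells by 1.93 (SE 0.25, adjusted p = 0.00216) among CD127-PD-1+ cells and by 2.79 (SE 0.25, adjusted p = 0.000107) among CD127+PD-1- cells.

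Relatives and partner factors of PLZF and of SOX proteins included falls in both lineages. Tcf7 and Lef1, which encode HMG-box factors of naive and memory T cells, fell in each. Tcf7 averaged 98.4 ± 10.3 CPM in CD4+CD127-PD-1+ cells and 379 ± 70.4 in CD4+CD127+PD-1- cells, and Lef1 averaged 53.2 ± 3.06 and 299 ± 103 CPM in those groups. In all, 1 of the 11 genes of this list rose and 4 fell in CD4+CD127-PD-1+ cells, and 2 rose and 3 fell in CD8+CD127-PD-1+ cells. Id3, which fell in both, was also counted in the gamma-delta list above. Tcf4, which was called lower in CD4+CD127-PD-1+ cells, is also in the plasmacytoid dendritic cell list below. Of all tested genes 6.81% rose and 4.87% fell in the CD4 comparison, and 9.05% rose and 6.56% fell in the CD8 comparison.

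NK and innate lymphoid genes, which share their cell types with Ncr1, numbered 25. In the CD8 state comparison 3 of 25 rose and 1 fell, near the 9.05% and 6.56% of all genes, and their summed level was 1195 to 1731 CPM in CD8+CD127-PD-1+ cells and 916 to 2099 CPM in CD8+CD127+PD-1- cells, so the groups overlapped. The receptor gene Klrb1b averaged 12.6 ± 5.28 CPM in CD8+CD127-PD-1+ cells and 2.41 ± 1.23 CPM in CD8+CD127+PD-1- cells (2.38, SE 0.42, adjusted p = 0.00292). Cd244, which encodes an NK receptor also found on stimulated CD8 cells, averaged 39.0 ± 2.92 CPM in CD8+CD127-PD-1+ cells and 14.2 ± 3.78 CPM in CD8+CD127+PD-1- cells (1.46, SE 0.33, adjusted p = 0.0115). That call was lost without CD8+CD127+PD-1- replicate 2 (adjusted p = 0.0521). Il1rl1 rose too in CD8+CD127-PD-1+ cells, by 1.82 (SE 0.35, adjusted p = 0.00466). The 1 gene of the list called lower there was Klrd1, with a log2 fold change of -0.88 (SE 0.24, adjusted p = 0.0315). Eomes, a factor of NK and memory CD8 cells, was not called between the CD8 states, at 55.1 ± 22.9 CPM in the CD127-PD-1+ group and 49.4 ± 6.79 CPM in the CD127+PD-1- group.

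In the CD4 state comparison 2 of the 25 rose and 3 fell, beside 6.81% and 4.87% of all genes. For CD4 over CD8 cells 1 was higher and 11 lower among CD127-PD-1+ cells, beside 1.60% and 0.843% of all genes. Among CD127+PD-1- cells 2 were higher and 10 lower in CD4, beside 2.76% and 1.66% of all genes. Eomes had the smallest p of the list in both and was lower in CD4. Its log2 fold change was -5.05 (SE 0.44, adjusted p = 9.55e-05) among CD127-PD-1+ cells and -5.50 (SE 0.39, adjusted p = 1.87e-05) among CD127+PD-1- cells. The genes named next are from the CD4 state comparison. Nkg7, a cytotoxic granule gene, averaged 154 ± 33.7 CPM in CD4+CD127-PD-1+ cells and 47.1 ± 6.54 in CD4+CD127+PD-1- cells (1.72, SE 0.26, adjusted p = 0.00222). Prf1, which encodes perforin, fell there by 2.02 (SE 0.39, adjusted p = 0.00770, not called without CD4+CD127-PD-1+ replicate 2 at 0.0617). All 25 NK and innate lymphoid genes had reads in every group.

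Genes of other blood cells moved with the states and stand beside each state result above. Of all tested genes 6.81% were higher and 4.87% lower in CD4+CD127-PD-1+ cells, and 9.05% and 6.56% in CD8+CD127-PD-1+ cells. All 12 macrophage genes were higher in the CD127-PD-1+ state of both lineages, summing to 1133 to 2337 CPM in CD4+CD127-PD-1+ cells and 52.2 to 118 in CD4+CD127+PD-1- cells, and to 1150 to 2264 in CD8+CD127-PD-1+ cells and 86.5 to 144 CPM in CD8+CD127+PD-1- cells. Of 12 plasmacytoid dendritic cell genes 7 were lower in CD4+CD127-PD-1+ cells and 6 in CD8+CD127-PD-1+ cells, summing to 458 to 648 CPM in CD4+CD127-PD-1+ cells and 1023 to 2012 in CD4+CD127+PD-1- cells, and to 443 to 523 in CD8+CD127-PD-1+ cells and 806 to 1592 CPM in CD8+CD127+PD-1- cells. Among 7 tested neutrophil genes 1 was called higher for CD4 and 6 for CD8 in the CD127-PD-1+ state. All 8 listed genes summed to 24.7 to 36.5 CPM among CD4+CD127-PD-1+ libraries, against 3.68 to 5.86 CPM among CD4+CD127+PD-1- libraries, and to 46.1 to 315 CPM in CD8+CD127-PD-1+ cells, against 2.84 to 24.9 CPM in CD8+CD127+PD-1- cells.

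B and plasma cell genes were 4 higher of 9 in CD8+CD127-PD-1+ cells and 0 of 9 in CD4+CD127-PD-1+ cells, where 0 also passed by DESeq2 or at an unadjusted p under 0.05. They summed to 170 to 361 CPM in CD4+CD127-PD-1+ cells and 268 to 407 in CD4+CD127+PD-1- cells, and to 402 to 653 in CD8+CD127-PD-1+ cells and 241 to 395 CPM in CD8+CD127+PD-1- cells. Kidney and endothelial genes were 2 lower of 9 tested in each state comparison, summing to between 51.6 and 348 CPM over all libraries. Of these genes Aqp1 had no read in CD4+CD127-PD-1+ cells and Nphs1 had none in CD4+CD127+PD-1- cells. The part of these genes, and of the mitochondrial ribosomal RNA share, in the Tcrg-C2, Zbtb16 and Ncr1 results was not tested. Between CD4 and CD8 cells of the CD127-PD-1+ state 0 of the 12 macrophage genes were called by edgeR or DESeq2, and 0 had an unadjusted p under 0.05. Of the 7 neutrophil genes 2, Cxcr2 and S100a9, were called lower in CD4 there, beside 0.843% of all genes, and 6 were lower at an unadjusted p under 0.05. Of the 9 B and plasma cell genes 0 were called by edgeR, 1, Cd79b, was called lower by DESeq2, and 6 were lower at an unadjusted p under 0.05. The part of these genes in the Zbtb16 lineage result was not tested.

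Over the 11 libraries the members did not move as a block. The highest Pearson correlation of log2 CPM between members was 0.72, between Tcrg-C2 and Tcrg-C4, followed by 0.68 between Tcrg-C4 and Zbtb16, and the lowest was -0.59, between Trdc and Zbtb16. Trdc and Tcrg-C2, constant genes of the paired delta and gamma chains, stood at -0.06. These values describe 11 libraries that share groups and depth.

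Among 7422 genes with a mean log2 CPM of at least 3, the pattern most like that of Tcrg-C2 was shown by Tnfsf10 (r = 0.95), which encodes the death ligand TRAIL, then Nsmaf (0.94) and Kif13b (0.93). For Zbtb16 they were Inppl1 (0.97), which encodes a lipid phosphatase, Cyp51 (0.95), a sterol synthesis enzyme, and Gpr107 (0.94). For Ncr1 they were Neat1 (0.90), a nuclear long noncoding RNA, Map3k1 (0.89) and Pgap1 (0.88). For Tcrg-C1 they were Zfp683 (0.84), which encodes the residency factor Hobit, Gimap4 (0.84) and Mr1 (0.79), which presents antigen to mucosal-associated invariant T cells. By ranks (Spearman) the Tcrg-C1 values were lower for Zfp683 (0.65) and Mr1 (0.49), and 0.84 for Gimap4. The genes most like Tcrg-C4 by Pearson r were Ercc6l2 (0.93), Asb7 (0.88) and Fam214a (0.88). For Trdc they were Rad54l2 (0.87), Hsdl2 (0.87, but 0.66 by ranks) and Ankrd32 (0.86). The sum of the 4 receptor constant genes was followed most closely by Tnfsf10 (0.93), Pias4 (0.92) and Itga1 (0.88), the last of which encodes an integrin of tissue-resident lymphocytes. All of these are the 3 highest values picked from 7422 genes over 11 libraries, and no link was tested.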

How the data were processed

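RNA of kidney T cells sorted into 4 groups was measured in 11 libraries. Per the labels' protocols, 2 ng of RNA from the Agencourt RNAdvance Cell kit were amplified isothermally from a single primer, and 75-base single reads were taken on a NextSeq550. The authors deposited raw counts per gene, for which the submitters' processing notes name STAR, featureCounts and the build GRCm38. Their versions, the annotation release and the strandedness are not given in the sources used. The counts of 11 columns were used, and 1 column without a label was not. Intervals cover counting error only, since amplified reads are not independent molecules.

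Counts were tested in R 4.3.3 with edgeR 4.0.16 by its quasi-likelihood test, after default filterByExpr (16365 genes), trimmed mean scaling and a mean for each group over all 11 libraries. Adjusted p-values are Benjamini-Hochberg values over the whole tested table, with a threshold of 0.05. CPM use the scaled library sizes. Fold changes are model estimates, and each SE is the estimate divided by the root of the test statistic. DESeq2 1.42.0 and limma 3.58.1 gave alternatives, with other scalings, filters and left-out libraries. Coordinates and transcripts came from GENCODE M21 (GRCm38), where 45229 identifiers were found. Of 28 listed receptor segments 21 were in the table.

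The members and lists were chosen with earlier results of these data known. Named from each list of T cell genes were up to 3 called genes of smallest p in each state comparison and 1 in each other comparison, or the most abundant gene where none was called. Segments with uneven reads, Il17a, Traj18 and the other listed genes outside this rule were picked after their values were seen. Genes of like pattern were the 3 of highest correlation, leaving out predicted genes and pseudogenes.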

Additional observations from a re-analysis of the deposited data

How the results depend on the processing

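Each value was recomputed with 1 choice changed at a time. The Zbtb16 calls in CD8 cells between states and between lineages among CD127+PD-1- cells held in every setting run. The other 4 member calls are close to the threshold, and the libraries that end them are named in the report. Without a filter on low counts Tcrg-C4 was called in the CD4 state comparison (adjusted p = 0.0272) and for CD4 over CD8 among CD127-PD-1+ cells (0.0267), and Tcrg-C2 was called in the CD8 state comparison (0.0107). Members called higher in the CD4 state comparison numbered 1 by limma-voom and with the compared groups alone. For CD4 over CD8 among CD127-PD-1+ cells they numbered 2 without a filter.

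Library totals gave 2605 lower genes in the CD8 state comparison, 721 higher genes for CD4 over CD8 among CD127-PD-1+ cells, Tcrg-C1 at -0.015 in the CD8 state comparison and Lcp2 at 0.16 for the difference of state changes. Among CD127-PD-1+ cells the lineage comparison gave 443 higher and 348 lower genes without a filter, 425 and 292 by DESeq2, and 143 and 71 with the compared groups alone. Among CD127+PD-1- cells it gave 578 lower genes without a filter and 527 by DESeq2. The difference of state changes gave 27 higher and 58 lower genes without a filter and 20 and 40 by DESeq2. The cause of these shifts was not tested.

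Libraries of the same title number did not pair as a set (r between -0.21 and 0.32, 7 of 15 pairs over 0.1). By description number r lay between 0.0011 and 0.33, with 10 of 12 pairs over 0.1. The 2 libraries of CD4+CD127-PD-1+ mirror each other around their mean, with r of 0.27 and -0.27 to CD4+CD127+PD-1- replicate 1. The pairs counted are therefore not independent of each other. Neither number is stated in the labels to mark a shared pool, so pairing by description number could not be settled, and the main model holds no block. With the title number as a replicate block, members called higher numbered 1 in the CD4 state comparison and 0 for CD4 over CD8 among CD127-PD-1+ cells, genes called higher for the difference of state changes numbered 0, Tcrg-C1 stood at -0.015 for the lineages among CD127+PD-1- cells, and Lcp2 at 0.0070 for the difference. Under this block Zbtb16 stood at adjusted p = 0.0786 in the CD4 state comparison and 0.118 for the lineages among CD127-PD-1+ cells. With the description number as a replicate block, members called higher numbered 1 in the CD8 state comparison, where Ncr1 stood at adjusted p = 0.0661. They numbered 2 in the CD4 state comparison, where Tcrg-C4 was called (0.0142) and Zbtb16 was not (0.0699). Among CD127-PD-1+ cells 0 were called higher for the lineages, where Zbtb16 stood at 0.202. That block gave 436 lower genes for the lineages among CD127+PD-1- cells, 0 higher and 1 lower for the difference, Cd3e at 0.062 and -0.053 in the CD8 state and CD127-PD-1+ lineage comparisons, and Lcp2 at 0.030.

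Leaving out each replicate gave 554 to 1261 higher and 374 to 790 lower genes in the CD4 state comparison, and 861 to 1572 and 614 to 1127 in the CD8 state comparison. For the lineages it gave 96 to 282 higher and 30 to 161 lower genes among CD127-PD-1+ cells, and 235 to 460 and 140 to 313 among CD127+PD-1- cells. The difference had 0 to 2 higher and 0 to 4 lower. Members called higher numbered 0 to 2 in CD4 cells, 1 to 2 in CD8 cells and 0 to 1 for the lineages among CD127-PD-1+ cells. Tcrg-C1 ranged between -0.57 and 1.77 in CD4 cells, -0.12 and 0.97 in CD8 cells, -0.72 and 1.60, and -0.25 and 0.82, for the lineages in the 2 states, and -0.75 and 1.58 for the difference. Tcrg-C2 ranged between -0.58 and 1.04 for the lineages among CD127-PD-1+ cells and between -0.0040 and 1.62 for the difference, and Tcrg-C4 between -0.15 and 1.38 there. Ncr1 ranged between -1.72 and 0.42 in CD4 cells. Uncalled list genes whose sign turned were Cd3e, between -0.31 and 0.069 in the CD8 state comparison and between -0.069 and 0.31 for the lineages among CD127-PD-1+ cells, and, for the difference, Lcp2, between -0.21 and 0.059, and Tcf7, between -0.0052 and 0.26.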
